A study of Mus musculus with 4 samples.

Results

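Neurotrophins are secreted growth factors that keep neurons alive and tune their synapses, and the genes described here are those for the neurotrophins and their receptors in the mouse cerebellum. Genes were chosen by name as Bdnf, Ntf3, Ntf5, Ntrk2, Ntrk3, Ngfr and Sort1. Of these 7 genes, 6 had a probe set named for them and Ntf3 did not, among 19505 named genes in all, so Ntf3 is not analysed here and its planned comparison with Ntrk3 could not be made. The animals were male C57BL/6N mice aged 10 weeks. The vehicle group (n = 2, replicates 7 and 9) received vehicle by mouth for 4 days, and the clothianidin group (n = 2, replicates 6 and 7) received clothianidin, a neonicotinoid insecticide, at 50 mg per kg per day for the same 4 days. All animals ran on the rotarod, a turning rod that tests motor coordination, on each of these days, and the brains were removed straight afterwards. RNA from each cerebellum sample was hybridised to 1 Affymetrix whole-transcript array. Values are the authors' probe set summaries, read here as log2 values, a base that no source states. A difference is the clothianidin mean minus the vehicle mean, called where its adjusted p is under 0.05. The labels do not say whether the samples come from separate animals, so each p-value reflects only how far these samples differ, and that spread may be technical. Clothianidin replicate 7 stood apart in the choroid plexus marker Ttr, at 13.96 where the other arrays read 5.67 to 6.38. The log2 of the summed linear values of 10 choroid plexus markers was 14.0 on it and 9.73 to 10.03 elsewhere, a gap that rests mostly on Ttr. Of the 10 markers, 4 were above both vehicle arrays on clothianidin replicate 7, 4 below both and 2 between them. The part of this array in the values below was not tested. Without this array the log2 differences were 1.29 for Ntrk3, 0.90 for Bdnf, 0.215 for Ntrk2, 0.18 for Sort1, -0.29 for Ngfr and -0.63 for Ntf5, each of the sign found with all arrays.

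Brain-derived neurotrophic factor (Bdnf) and neurotrophin-4/5 (Ntf5) bind the receptor tyrosine kinase TrkB, encoded by Ntrk2, while neurotrophin-3 (Ntf3) binds TrkC, encoded by Ntrk3. Active Trk receptors signal through the Ras and MAP kinase, PI3 kinase and phospholipase C branches. The p75 receptor (Ngfr) binds all neurotrophins and, with sortilin (Sort1), their uncleaved precursors, and sortilin also sorts the BDNF precursor inside the cell. In the cerebellum, granule neurons depend on BDNF and TrkB as they mature, and TrkC is found on granule and Purkinje neurons.

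Bdnf is transcribed from several start sites, and a calcium- and cAMP-responsive element just upstream of one of them is a textbook example of activity-dependent transcription. The RefSeq promoter table (GRCm38.p6) held entries for 3 of the 6 genes, Bdnf, Ngfr and Ntrk2, and 7 start sites for Bdnf. The letters TGACG, or CGTCA on the other strand, which together make up and overlap in the full element TGACGTCA, were searched on both strands of the 250 bases before each start. They occurred before 1 of the 7 Bdnf starts, and before 17.8% of the 32851 starts in the table, while the full element was present before 1.55% of them. The stretch before that Bdnf start is shown because it is a part of the gene through which neuronal activity is known to act. It does not hold the full element. It lies at chr2:109692186-109692435 on the plus strand, and the match, in capitals, ends 30 bases before the end of the stretch.

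Bdnf promoter: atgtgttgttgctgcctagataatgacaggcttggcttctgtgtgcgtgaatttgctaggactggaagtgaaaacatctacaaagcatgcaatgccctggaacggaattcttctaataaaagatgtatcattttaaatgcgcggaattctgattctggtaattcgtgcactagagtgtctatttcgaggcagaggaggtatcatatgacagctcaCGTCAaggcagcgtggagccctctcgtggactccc

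The array cannot assign the Bdnf signal to this start, because its probe set covers 11 RefSeq transcripts. The Ntrk3 and Ntrk2 probe sets likewise cover 2 and 3 transcripts. Both genes are known to make receptors with and without the kinase domain, which these values do not separate.

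Ntrk3 had the largest difference of the 6 genes, and its value was higher on both clothianidin arrays than on either vehicle array. Bdnf was placed the same way with a smaller difference. Ntrk2, the receptor gene for BDNF, and Ngfr had overlapping groups and differences near 0, and Sort1 differed little. None of the 6 passed the test after adjustment (limma, Benjamini-Hochberg adjusted p = 0.997 for each).

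Among the receptors, Ntrk3 read 12.14 and 12.52 on the log2 scale in the vehicle samples and 13.62 and 12.98 in those given clothianidin. The groups did not overlap, and clothianidin replicate 6 was the highest array while vehicle replicate 7 was the lowest. The vehicle mean was 12.33 ± 0.27 and the clothianidin mean 13.3 ± 0.45 (SD, n = 2 each). The log2 difference was 0.97 ± 0.32 (standard error), or 1.96-fold. The unadjusted limma p was 0.0173 and the 95% interval, also unadjusted, ran from 0.22 to 1.72. Of all 22206 probe sets, 1.13% had a larger difference in either direction and 1.16% a smaller p. The difference stayed above 0 with any array left out, at 0.65 without clothianidin replicate 6, 0.78 without vehicle replicate 7, 1.16 without vehicle replicate 9 and 1.29 without clothianidin replicate 7.

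Ntrk2 read 14.44 and 14.59 in the vehicle samples and 14.73 and 14.39 in those given clothianidin. Its highest and lowest values were both on clothianidin arrays. The log2 difference was 0.045 ± 0.28 (standard error), with a 95% interval from -0.60 to 0.69, so these arrays leave room for a change of up to 1.62-fold upward or to 0.659 of the vehicle level. Its sign turned to -0.03 without vehicle replicate 7 and to -0.125 without clothianidin replicate 6.

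Ngfr read 6.56 and 7.06 in the vehicle samples and 6.52 and 6.86 in those given clothianidin, so the clothianidin values lay close to the vehicle ones. For Ngfr the log2 difference was -0.12 ± 0.31 (standard error), with a 95% interval from -0.82 to 0.58, and it was 0.13 without vehicle replicate 9 and 0.05 without clothianidin replicate 6.

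Sort1 read 13.84 and 13.78 in the vehicle samples and 13.99 and 13.95 in those given clothianidin. The groups did not overlap, and the arrays within each group were nearly alike, with SDs of 0.04 and 0.03 (n = 2 each). For Sort1 the log2 difference was 0.16 ± 0.27 (standard error), with a 95% interval from -0.45 to 0.77.

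Among the ligands, Bdnf read 7.34 and 6.96 in the vehicle samples and 8.05 and 7.47 in those given clothianidin. The groups did not overlap, although vehicle replicate 7 and clothianidin replicate 7 were separated by less than the arrays within either group. The vehicle mean was 7.15 ± 0.27 and the clothianidin mean 7.76 ± 0.41 (SD, n = 2 each). The log2 difference was 0.61 ± 0.32 (standard error), or 1.53-fold. The 95% interval ran from -0.12 to 1.34 (limma unadjusted p = 0.0904), and 7.75% of all probe sets had a larger difference. The difference shrank to 0.32 without clothianidin replicate 6 and was 0.90 without clothianidin replicate 7.

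Ntf5 read 4.06 and 3.82 in the vehicle samples and 3.31 and 3.85 in those given clothianidin. The groups overlapped, with clothianidin replicate 6 the lowest array. The log2 difference was -0.36 ± 0.30 (standard error), with a 95% interval from -1.06 to 0.34, and it was -0.09 without clothianidin replicate 6. Olfactory receptor genes, which the brain hardly uses, gave a reference for dim signal, and the mean of Ntf5 was below their median of 4.09, with 32.8% of 1091 such probe sets lower still. Ntf5 was therefore not shown to be above background on these arrays. By the same measure Bdnf lay above 99.8% of the olfactory receptor probe sets, Ngfr above 99.6% and the other three genes above all of them.

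**Figure D1:**
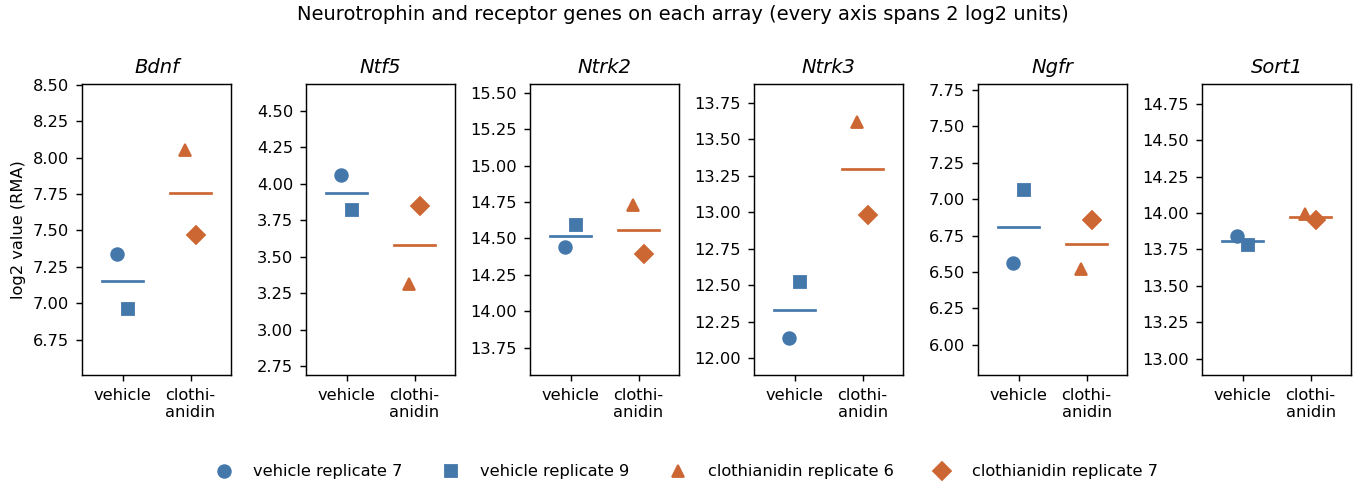
Log2 value of each gene on each of the 4 arrays (points, marked by replicate) with the group mean as a line, and every vertical axis spanning the same width. Clothianidin values lie above both vehicle values for Ntrk3 (12.98 and 13.62 against 12.14 and 12.52), Bdnf and, by a small margin, Sort1, and the groups overlap for Ntf5, Ntrk2 and Ngfr.

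Across the 6 genes, 4 had a higher mean with clothianidin and 2 a lower one, where 48.1% and 51.2% of all probe sets did. Groups that did not overlap, with clothianidin higher, were found for 3 of the 6, and with clothianidin lower for 0. Over all probe sets 15.1% were placed the first way and 15.5% the second. The first share depends on level, since it was 20.9% among probe sets whose mean reached the median level, where 5 of the 6 genes lie, and the second was 9.84% there. Of the 3 genes, Ntrk3 and Bdnf also differed by at least 1.5-fold, as did 4.04% of all probe sets in that direction and 3.57% in the other, where 0 of the 6 lie. With so few genes, and genes chosen with earlier results of these data known, the counts are a description. An unadjusted limma p under 0.05 was found for 1 gene, Ntrk3, where 940 probe sets, or 4.23% of all, had one. An adjusted p under 0.05 was found for 0 of the 6, as for 0% of all probe sets.

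**Figure D2:**
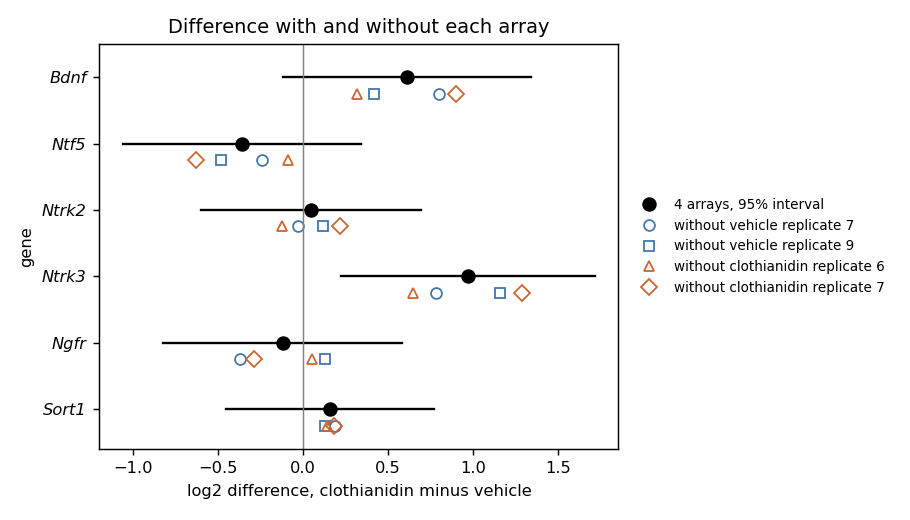
Log2 difference of each gene, clothianidin minus vehicle, over 4 arrays (filled points, with 95% limma interval as a line) and with each array left out (open symbols below the line). The interval excludes 0 for Ntrk3 (0.22 to 1.72) and includes it for the other genes, and leaving out an array moves Ntrk2 and Ngfr across 0.

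Ligands and receptors were next set side by side. The 2 ligand genes measured had log2 differences of 0.61 and -0.36, with a median of 0.125, and the 4 receptor genes ran from -0.12 to 0.97 with a median of 0.10, against a median of -0.01 over all probe sets. In level, the ligand probe sets had mean values above 58.1% (Bdnf) and 12.1% (Ntf5) of all probe sets. The receptor probe sets lay above 97.8% (Ntrk2), 96.6% (Sort1), 93.7% (Ntrk3) and 52.2% (Ngfr). These places describe signal on the arrays, and because probe sets bind with different strength they do not give the order of transcript amounts.

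Unequal change can be read within an array from the log2 ratio of a pair of genes, and 4 pairs were compared. The pairs were chosen after the values were seen, and each difference follows from those of its genes. The ratios and their p-values are therefore a description and no separate evidence. The ratio of Ntrk3 to Ntrk2 was -2.30 and -2.07 in the vehicle samples and -1.11 and -1.41 in those given clothianidin, a difference of 0.925, with no overlap. Here the TrkC gene stood higher relative to the TrkB gene on both clothianidin arrays. The ratio of Ntrk2 to Bdnf, a receptor gene and its ligand gene, was 7.10 and 7.63 in the vehicle samples and 6.68 and 6.92 in those given clothianidin, a difference of -0.565, also with no overlap. The exact two-sided permutation p was 0.333 for each of these pairs, the smallest that 2 arrays against 2 can give, and 0.666 when adjusted over the 4 pairs. The ratio of Ntrk3 to Bdnf was 4.80 and 5.56 in the vehicle samples and 5.57 and 5.51 in those given clothianidin (exact permutation p = 0.667). Its groups overlapped, and both genes were highest on clothianidin replicate 6. The ratio of Ngfr to Bdnf was -0.78 and 0.10 in the vehicle samples and -1.53 and -0.61 in those given clothianidin, with overlap (exact permutation p = 0.667).

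The wider family of neurotrophins, receptors and sortilin relatives had 10 measured genes of 13 listed, the 6 genes above among them. Of the 10, 8 had a higher mean in the clothianidin group and 2 a lower mean. At or above the median level, where 9 of the 10 lie, 58.4% of probe sets were higher. The median log2 difference of the list was 0.315. The median was 0.1475 without vehicle replicate 9. None passed limma over all probe sets. Beyond the genes above it held Sorl1, which encodes a sorting receptor of the endosome, and the sortilin-related receptor genes Sorcs1, Sorcs2 and Sorcs3. Sorl1 read 14.86 and 15.01 in the vehicle samples and 15.60 and 15.17 in those given clothianidin, and the log2 difference was 0.45 ± 0.29 (standard error). The groups of Sorl1 did not overlap, with clothianidin replicate 6 again the highest array. The log2 difference was 0.43 for Sorcs3, 0.425 for Sorcs2 and 0.205 for Sorcs1, with unadjusted limma p of 0.171, 0.318 and 0.487.

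Genes acting around and downstream of the receptors were taken from 7 further lists. Over all 8 lists together, 122 of 149 genes were measured, of which 77 had a higher mean in the clothianidin group and 44 a lower one, and the median log2 difference was 0.09. That is 63.1% higher, where 48.1% of all probe sets and 58.4% of those at or above the median level were higher, and 101 of the 122 genes lie at or above that level. An unadjusted limma p under 0.05 was found for 7 of the 122, or 5.74%, near the 4.23% over all probe sets and the 4.6% over those at or above the median level, and 0 passed after adjustment. Without clothianidin replicate 6, 60 of the 122 were higher and the median was -0.0125, and without vehicle replicate 9 these were 65 and 0.0575. They were 85 and 0.20 without clothianidin replicate 7, and 80 and 0.1475 without vehicle replicate 7.

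Proteases and sorting enzymes that process neurotrophin precursors had 12 measured genes, 6 higher and 6 lower, with a median log2 difference of 0. Cpe, carboxypeptidase E, which trims prohormones and helps sort the BDNF precursor, read 15.48 and 15.18 in the vehicle samples and 14.72 and 14.75 in those given clothianidin. Both clothianidin values lay below both vehicle values, with a log2 difference of -0.595 (limma unadjusted p = 0.0628). The difference was 0.445 for Pcsk6, a proprotein convertase gene, and -0.245 for the metalloprotease gene Mmp9, whose mean was below the olfactory receptor median.

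Adaptors and membrane partners of the Trk receptors had 17 of 27 genes higher and 10 lower, with a median of 0.105, which was 0.05 without vehicle replicate 9, -0.08 without clothianidin replicate 6 and 0.205 without clothianidin replicate 7. Sh3gl2, which encodes the endocytic protein endophilin A1, read 14.87 and 14.25 in the vehicle samples and 13.96 and 13.71 in those given clothianidin, a log2 difference of -0.725 (limma unadjusted p = 0.0495). The groups of Sh3gl2 did not overlap. Sh2b1, an adaptor gene, read 7.25 and 7.24 in the vehicle samples and 7.79 and 7.64 in those given clothianidin, and Hap1, whose huntingtin-associated product carries vesicles, had a difference of -0.515.

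In the Ras and MAP kinase branch 9 of 13 genes were higher and 4 lower, with a median of 0.135. Rasa1, the gene for a GTPase-activating protein that switches Ras off, read 10.22 and 9.93 in the vehicle samples and 10.87 and 10.94 in those given clothianidin. The clothianidin arrays lay close together and above both vehicle arrays, and the log2 difference was 0.83 ± 0.28 (standard error; limma unadjusted p = 0.0167). The small GTPase gene Rap1b had a difference of 0.455 and Rps6ka5, which encodes the nuclear kinase MSK1, -0.505.

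In the PI3 kinase and Akt branch 12 of 18 genes were higher and 5 lower, with a median of 0.07, which was 0.155 without vehicle replicate 7, -0.01 without vehicle replicate 9, -0.0975 without clothianidin replicate 6 and 0.30 without clothianidin replicate 7. The docking protein gene Irs1 read 7.56 and 7.48 in the vehicle samples and 8.86 and 7.68 in those given clothianidin, with replicate 6 far above the other three arrays, for a log2 difference of 0.75. Irs2 had a difference of 0.61 and Eif4ebp1, a translation repressor gene under mTOR, 0.50.

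In the phospholipase C, calcium and CREB branch 10 of 17 genes were higher and 7 lower, with a median of 0.095, which was -0.155 without clothianidin replicate 6 and 0.38 without clothianidin replicate 7. Plcg2, a phospholipase C gamma gene, read 5.87 and 5.69 in the vehicle samples and 4.66 and 5.12 in those given clothianidin, a log2 difference of -0.89 (limma unadjusted p = 0.0160). The brighter Plcg1, also a phospholipase C gamma gene, read 9.36 and 9.95 with vehicle and 10.07 and 9.89 with clothianidin. Its groups overlapped, and its difference was in the other direction, at 0.325. Crebbp, which encodes the CREB-binding coactivator, read 13.35 and 13.64 in the vehicle samples and 14.49 and 14.05 in those given clothianidin, a difference of 0.775 (limma unadjusted p = 0.0308). The calmodulin gene Calm2 had a difference of 0.47.

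In the p75 receptor branch 11 of 16 genes were higher and 5 lower, with a median of 0.065, which was 0.22 without vehicle replicate 7 and 0.215 without clothianidin replicate 7. Maged1, whose product binds the p75 receptor, had a log2 difference of 0.535, the kinase gene Mapk10 -0.455 and the adaptor gene Traf4 0.35, with no unadjusted limma p under 0.05 in the branch.

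Genes known to be induced by BDNF signalling or by activity had differences on both sides of 0, with 4 of 9 higher and 5 lower and a median of -0.005. Npas4, an activity-dependent transcription factor gene whose product binds Bdnf promoters, read 8.29 and 6.54 in the vehicle samples and 3.78 and 4.37 in those given clothianidin. It was lower on both clothianidin arrays, where it lay around the olfactory receptor median, so the size of its log2 difference of -3.34 is uncertain. No probe set had a smaller unadjusted limma p than Npas4 (2.47e-04), and its Benjamini-Hochberg adjusted p was 0.997. Fos had a log2 difference of -0.875 (limma unadjusted p = 0.0297). Vgf, a neuropeptide precursor gene induced by neurotrophins, read 6.10 and 5.56 in the vehicle samples and 6.83 and 6.32 in those given clothianidin, a difference of 0.745 (limma unadjusted p = 0.0504). Bdnf, Vgf and Nr4a1 (0.62) were thus on the higher side, with Nptx2 (0.355) and Arc (0.20). Npas4, Fos and Egr1 (-0.615) were on the lower side, with Homer1 (-0.195) and Dusp6 (-0.005). The groups overlapped for Egr1, Arc, Homer1 and Dusp6, and none of these differences passed after adjustment.

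**Figure D3:**
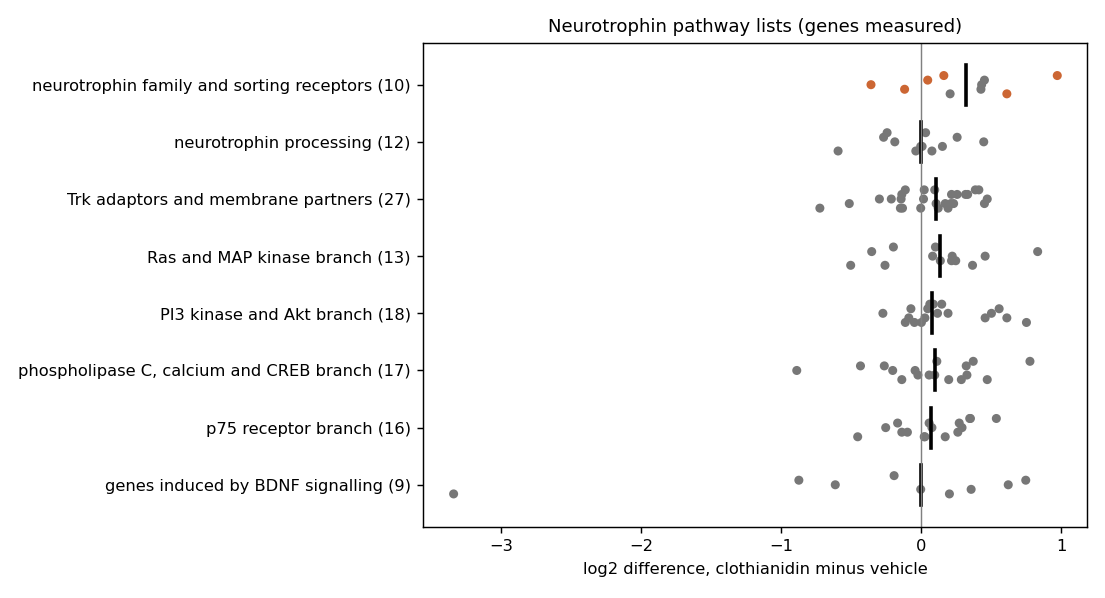
Log2 difference, clothianidin minus vehicle, of each measured gene in 8 lists around neurotrophin signalling (points, with Bdnf, Ntf5, Ntrk2, Ntrk3, Ngfr and Sort1 in orange) and the median of each list (black bars). List medians lie between -0.005 and 0.315, and the point farthest left is Npas4 at -3.34.

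Markers of the cerebellum's own cells were bright on all arrays, with 0 of 10 measured granule cell and 0 of 9 Purkinje cell markers below the olfactory receptor median. Below it were 3 of 5 measured midbrain and forebrain markers, Emx1, Otx1 and Drd1. The other members of that list were above it, Neurod6 at 7.34 to 7.95 over the 4 arrays and Tcf7l2 at 11.7 on vehicle replicate 7 and 9.11 to 9.94 on the remaining ones. Array medians ran from 6.49 to 6.54, and Pearson's r across probe sets was 0.987 to 0.989 within groups and 0.986 to 0.989 between them.

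Like Ntrk3 and Bdnf, 6 of the 10 granule cell markers were highest on clothianidin replicate 6, while 3, Gabra6, Cbln1 and Cbln3, were highest on vehicle replicate 7 and 1, Pax6, on clothianidin replicate 7. Their median deviation from the mean over the 4 arrays was -0.11 and -0.19 on vehicle replicates 7 and 9, 0.50 on clothianidin replicate 6 and -0.165 on clothianidin replicate 7. Ntrk3 deviated by -0.675, -0.295, 0.805 and 0.165 on the same arrays, and Bdnf by -0.115, -0.495, 0.595 and 0.015. On clothianidin replicate 7, where Ntrk3 and Bdnf were above both vehicle arrays, 3 of the 10 markers (Zic2, Fat2 and Pax6) were above both as well, 2 were below both and 5 lay between them. Of the 10 granule cell markers 7 were higher and 3 lower. The log2 of their summed linear values was 19.5 and 19.3 in the vehicle samples and 19.8 and 19.4 in those given clothianidin. All 10 lie at or above the median level, where 58.4% of probe sets were higher, and so do most markers in each list that follows. The share of all probe sets highest on clothianidin replicate 6 was not counted. The median deviation of the 122 pathway genes was also highest on that array, at 0.15. Purkinje cell markers had 7 of 9 higher, with deviations of -0.11, -0.135, 0.075 and 0.13. Their log2 of summed values was 19.9 to 20.1 with vehicle and 20.2 to 20.3 with clothianidin. That sum rests mostly on Aldoc, at 18.43 to 18.78 over the arrays, and Car8, at 18.19 to 18.45. Oligodendrocyte markers, 0 of 10 higher and 10 lower, deviated by 0.27, -0.05, -0.13 and -0.20. Their log2 of summed values, which rests mostly on Mbp (17.0 to 17.48), was 17.7 to 17.9 with vehicle and 17.5 to 17.9 with clothianidin. Bergmann glia and astrocyte markers deviated by -0.05 to 0.03. Markers of unipolar brush cells, excitatory interneurons of the granule layer, were higher for 4 of 4. Their deviations were -0.0987, -0.11, 0.16 and 0.05, so the median of this list was above the vehicle level on both clothianidin arrays. The groups did not overlap for Calb2 and Plcb4. They overlapped for Lmx1a and for Eomes, which read 10.09 and 11.26 with vehicle and 11.94 and 11.14 with clothianidin. The log2 of summed values, which rests mostly on the bright Calb2 and Plcb4, was 16.57 to 16.58 with vehicle and 16.7 to 16.9 with clothianidin. Meninges and fibroblast markers, 6 of 9 higher, deviated by 0.04, -0.225, 0.175 and 0.0975, in the order of arrays seen for Bdnf. Their log2 of summed values, which rests mostly on Igf2 (13.84 to 14.9), was 14.3 to 15.2 with vehicle and 14.9 to 15.2 with clothianidin. Molecular layer and Golgi interneuron markers, 6 of 8 higher, deviated by 0.07, -0.22, 0.27 and -0.0075. Being highest on clothianidin replicate 6 was shared by 6 of these 8 markers and 3 of the 4 for unipolar brush cells. It held for 3 of 9 Purkinje cell, 3 of 9 meninges and fibroblast and 1 of 10 oligodendrocyte markers. On clothianidin replicate 7, above both vehicle arrays were 5 of 9 Purkinje cell, 4 of 8 interneuron and 5 of 9 meninges markers. Below both were 3, 3 and 2 of them. The part of these marker shifts in the differences of Ntrk3 and Bdnf was not tested. In bulk tissue, more cells of a type and more RNA per cell cannot be told apart.

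**Figure D4:**
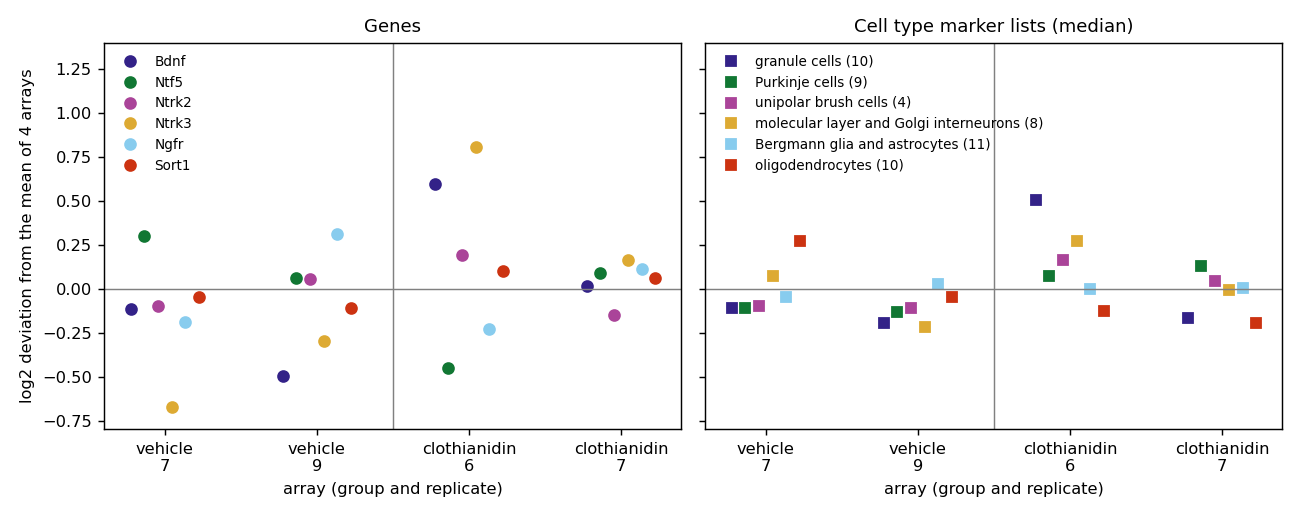
Log2 deviation from the mean over the 4 arrays, for each of the 6 genes (left) and as the median over each cell type marker list (right, with the number of genes measured), by array. On clothianidin replicate 6 Ntrk3 (0.805), Bdnf (0.595) and the granule cell list (0.50) are all at their highest. The lists for molecular layer and Golgi interneurons (0.27) and unipolar brush cells (0.16) are highest there too.

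The genes most like Ntrk3 over the 4 arrays, by the root mean square distance between deviations, were Cep170, which encodes a centrosomal protein, Dop1b, and the ubiquitin ligase gene Herc1. Their distances were 0.041, 0.054 and 0.063 log2 units, and 15 of the 9592 named genes compared lay within 0.1. Cep170 read 12.30 and 12.72 in the vehicle samples and 13.72 and 13.18 in those given clothianidin, which is the order of arrays seen for Ntrk3. With only 4 arrays such likeness is a description.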

How the data were processed

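The values analysed were the authors' deposited log2 probe set summaries, made with RMA per the submitters' processing notes; neither version nor settings were given in the sources used here. A base of 2 was assumed for the logarithm, which no source states. No scanner files were used, so signal over background is unknown, and the number of arrays limits the precision. Probe sets were named through the GEO platform annotation, possibly outdated: of 22206, 19572 had 1 gene symbol, 0 had several and 2634 had none, and 0 symbols changed on update through the RefSeq table of GRCm38.p6. For a gene with several probe sets the highest mean stood for it; none of the 6 genes had several. Samples were grouped by title. All groups entered 1 limma fit (version 3.58.1, R 4.3.3, lmFit and eBayes) over all probe sets with Benjamini-Hochberg adjustment at 0.05, and the procedure was tested on simulated data. Moderation used a prior SD of 0.306 and 5.96 prior with 2 residual degrees of freedom, and the median standard error was 0.298. The genes and lists were chosen with earlier results of these data known. In each list every gene with unadjusted p under 0.05 and, beyond these, up to 3 genes by smallest p were named. Nr4a1, Egr1, Nptx2, Arc, Homer1, Dusp6, Plcg1, Sorcs1, Sorcs2 and Sorcs3 were added after their values were seen. The likeness rule took the 3 nearest genes at or above the median level. The pairs of genes were chosen after the values were seen, in place of Ntrk3 with Ntf3. The alternatives tried were centring on the median, quantile normalization, a filter at the median level, 1 probe set per gene, another prior and leaving out each array.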

Additional observations from a re-analysis of the deposited data

How the results depend on the processing

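No adjusted call was made in any fit but the one without clothianidin replicate 6, so that leaving out arrays gave 0 to 1 called probe sets; the single call was the transthyretin gene Ttr, none of the genes above. Of the 6 genes, Ntrk3, Bdnf, Ntf5 and Sort1 kept their direction in every alternative that could be run. With each array left out Ntrk3 ranged from 0.65 to 1.29, Bdnf from 0.32 to 0.90, Ntf5 from -0.63 to -0.09 and Sort1 from 0.13 to 0.19. Ntrk2 turned to -0.039 after quantile normalization and ranged from -0.125 to 0.215 with arrays left out, and Ngfr ranged from -0.37 to 0.13. The median of the receptor genes was 0.0056 after quantile normalization and 0.08 to 0.1975 with arrays left out. The median of the ligand genes was -0.03 to 0.28 with arrays left out and 0.61 with the filter on level, which removes Ntf5 and leaves Bdnf alone. A fit that leaves out an array has a lone array in 1 group, taken to vary like the other group. No other probe set could stand for any of the genes, because each had 1, and the ratio of Ntrk3 to Ntf3 was not run. No paired analysis was possible because the groups share fewer than 2 replicate numbers.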
